A study of Homo sapiens with 8 samples.

Results

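Dynein arms, radial spokes and the proteins that assemble, dock and regulate them make the axoneme of a motile cilium or sperm flagellum bend, and the genes described here are those whose symbols name them. All genes of the deposited normalized table were taken whose GENCODE symbol starts with DNAH, DNAI, DNALI, DNAL, DNAAF, CFAP, RSPH, ODAD or DRC followed by a digit. The rule itself used the symbol alone, while a place in the normalized table needed more than 80 counts over the 8 libraries. The symbols matched 113 genes in the table of 57500 genes counted, and 78 of them were among the 19118 genes of the normalized table. Of these 78, 75 code for proteins, 1 is the readthrough transcript CFAP298-TCP10L, and 2 are non-coding RNAs, DNAH10OS and CFAP58-DT. They lie on 21 chromosomes.

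The cells were HEK293T, a human embryonic kidney line with SV40 large T antigen, so every value is from a single cell line. They received 100 µM DZNep (3-deazaneplanocin A) for 48 h or vehicle (Control), and DZNep, an analog of adenosine, blocks AHCY, the hydrolase of S-adenosyl-L-homocysteine, so that methylation by S-adenosyl-L-methionine is reduced. RNAseq gave 4 libraries in each group, numbered 1 to 4, which the study calls biological replicates; where libraries of a group came from cultures that were not independent, a p-value would measure only the spread between these libraries. A single dose and a single time were sequenced, and values are normalized counts, which are counts divided by a size factor of each library.

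Libraries held 25043058 to 44902779 counts, and Control replicate 1 was the shallowest. The first principal component (63.5% of the variance) separated the treatments. The second (22.5%) separated replicates 1 and 4 from replicates 2 and 3 in both groups, and the mitochondrial share of the counts moved with it: it was 7.76% and 13.7% in Control replicates 1 and 4, and 3.02% and 3.16% in replicates 2 and 3. In the DZNep libraries it was 7.04% and 10.1% in replicates 1 and 4, and 4.25% and 4.44% in replicates 2 and 3. Of the HEK293T genes, PAX2, LHX1, WT1, NEFL, NEFM, INA, CDH2 and VIM had at least 158 normalized counts in every library, EPCAM had 39.4 to 125 and NEFH 10.7 to 39.9, while PAX8 had at most 6.44. The multiciliated cell markers were mixed: FOXJ1, DEUP1, C9orf24 and SNTN reached at most 5.44, 6.27, 5.38 and 1.54 normalized counts in any library, GMNC had 4.63 to 68.5, OMG 4.32 to 43.0 and PIFO 16.1 to 37.1, while MCIDAS (110 to 204), CCNO (116 to 223), TPPP3 (145 to 512), CAPS (55.3 to 222) and the tubulin TUBB4B (10010 to 42677) were present in every library. The sperm cell genes PRM1, PRM2, TNP1, TNP2 and ODF1 had no count in any library, AKAP4 had 2 counts in all, and ACR had 8.04 to 26.9 normalized counts in Control libraries and at most 1.73 after DZNep. The lymphoid gene MS4A1 had no count, CD3E had none in the Control libraries and 8.16 to 40.5 normalized counts after DZNep, and PTPRC had 36.7 to 77.7 over all libraries.

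The axoneme is a ring of doublet microtubules, in motile cilia and flagella usually around a central pair. Outer and inner dynein arms, built from heavy chains (the ATP-driven motors) with intermediate and light chains, walk on the neighbouring doublet. Dyneins are put together in the cytoplasm by assembly factors (DNAAF genes and others), carried into the cilium, and seated by a docking complex (ODAD genes), while radial spokes (RSPH genes) and the nexin-dynein regulatory complex (DRC genes) link the doublets to the central apparatus and to each other. CFAP stands for cilia and flagella associated protein and joins proteins of many of these structures, including those inside the doublet microtubules. Transcription of such genes is known to be driven by RFX factors and FOXJ1. HEK293T cells form a primary cilium, which lacks dynein arms and spokes, and the RNA levels below say nothing about a motile axoneme in these cells.

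After DZNep 12 of the 77 genes tested were higher and 22 were lower, with both directions among the heavy chains, assembly factors and spoke genes. The steepest rises were of CFAP91, of the heavy chains DNAH3 and DNAH8 and of CFAP99. These had only 2, 36, 9 and 31 counts over the Control libraries, and so entered the normalized table through their DZNep counts. The steepest falls were of the RNA DNAH10OS, CFAP70, and the assembly factors DNAAF5 and DNAAF8. A gene was called at an adjusted p under 0.05 in edgeR's quasi-likelihood test across 19171 genes and an absolute log2 fold change over 1. Called higher were 15.6% of the genes tested here, against 10.6% of all genes tested. Called lower were 28.6%, against 13.5% of all genes tested. The median log2 fold change was -0.50, and it was -0.03 over all genes tested, of which 48.6% were above 0. In 18 genes the lowest DZNep library exceeded the highest Control library (23.4%, against 19.5% of all genes tested), and in 23 genes the highest DZNep library was below the lowest Control library (29.9%, against 19.4%). Without the fold change threshold 16 of the 77 were higher and 29 of the 77 lower at an edgeR adjusted p under 0.05. For all 19171 genes tested the numbers were 3656 (19.1%) and 4171 (21.8%). In bulk RNA, fewer cells that express a gene and less of its RNA per cell cannot be told apart.

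**Figure D1:**
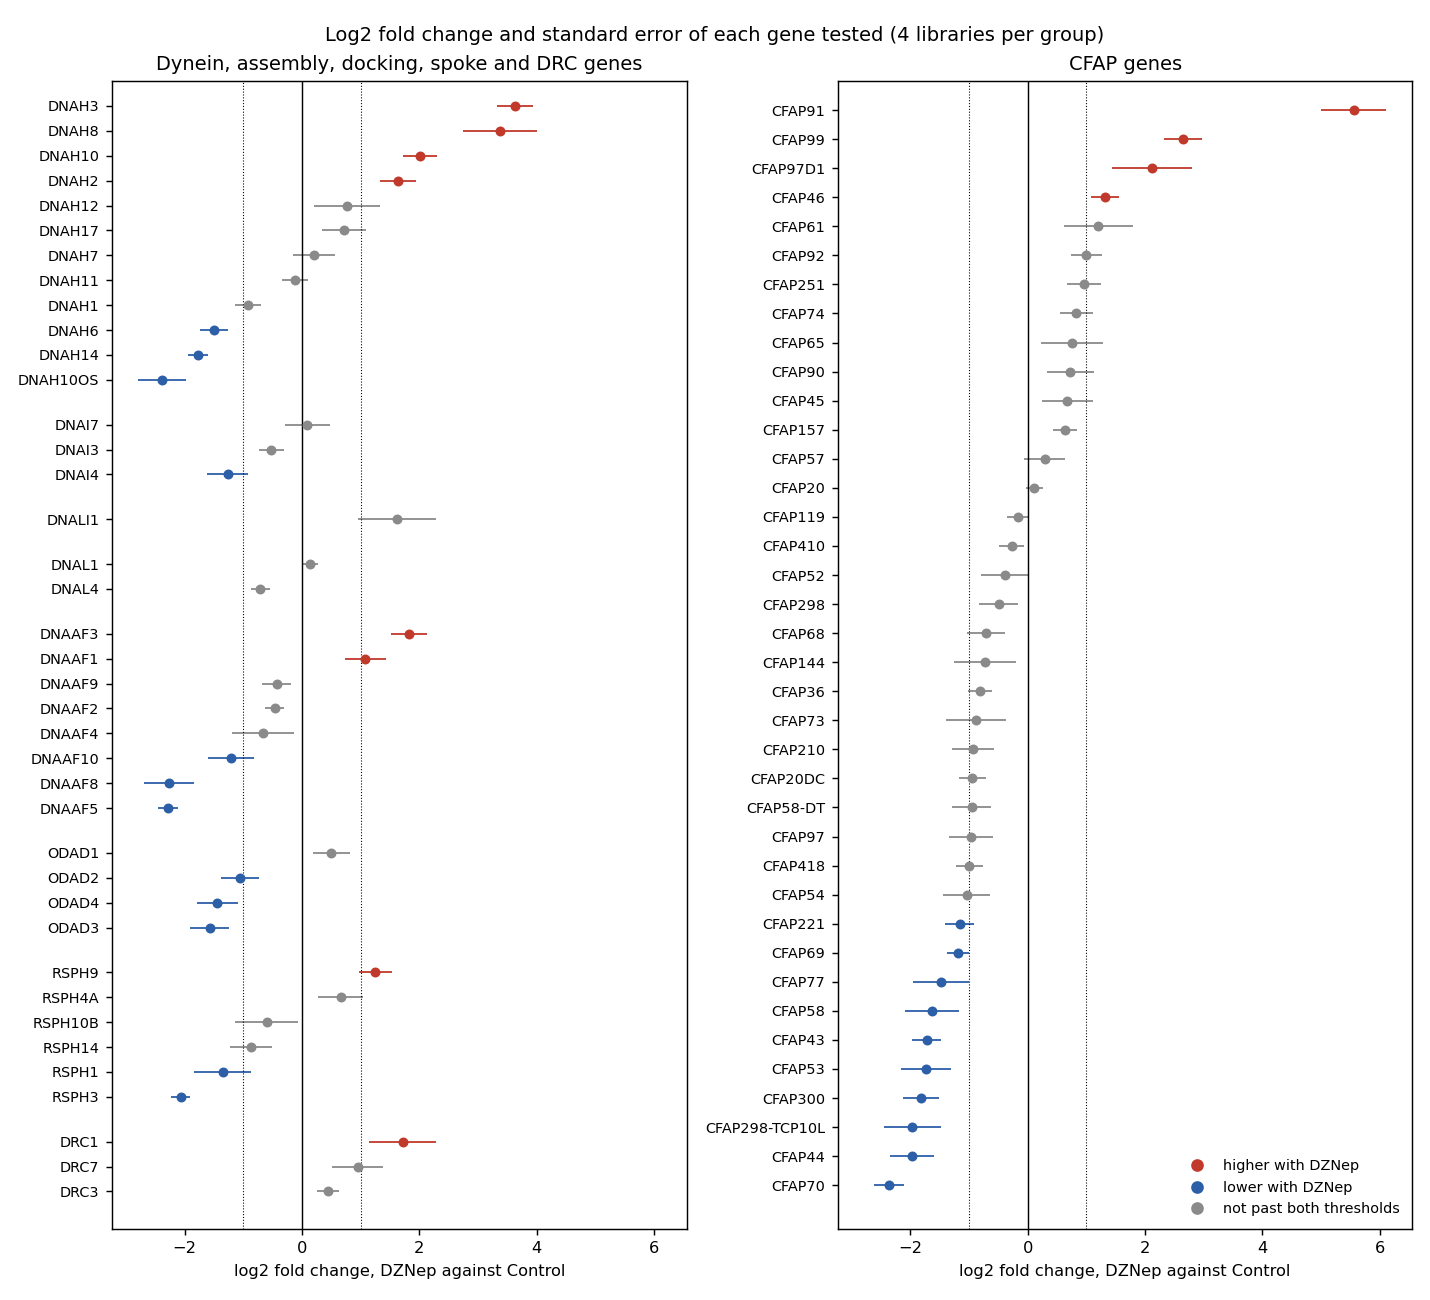
Log2 fold change (DZNep against Control) of the 77 genes tested, with its standard error as a horizontal bar, grouped by family; dotted lines mark the fold change threshold. Red marks the 12 genes called higher, blue the 22 called lower, and grey those not past both thresholds. CFAP91 lies farthest to the right (5.55) and DNAH10OS farthest to the left (-2.38).

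Membership of the normalized table needed more than 80 counts over the 8 libraries. A gene low in both groups could not enter it, so 11 genes entered with at most 40 counts in the Control libraries and 7 with at most 40 after DZNep. Of the 12 called higher, 6 had at most 40 Control counts (CFAP91, DNAH3, DNAH8, CFAP99, CFAP97D1 and DRC1). Of the 22 called lower, 5 had at most 40 DZNep counts (DNAAF8, RSPH1, CFAP58, CFAP77 and CFAP298-TCP10L). The counts of called genes therefore describe the genes that passed and do not speak for the 35 others. Of these 35, 18 code for proteins, 4 genes had no count at all, and none passed the filter of the test. They included heavy chains and intermediate chains of the outer arm, which form its motor in airway cilia. DNAH5 had 40 counts summed over the Control libraries and 12 over the DZNep libraries. DNAH9 had 1 and 8, DNAI1 had 23 and 34, and DNAI2 had 0 and 9. CFAP161, a protein inside the doublet, had 4 and 50 counts. 1 gene of the 78, CFAP276, was in the normalized table but below the filter of the test, with 22.2 normalized counts in Control libraries and 4.62 after DZNep.

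Read support split the genes unevenly. Among the 29 with a Control mean of at least 100 normalized counts, 1 was called higher (DNAAF3) and 10 lower, with a median log2 fold change of -0.82. Among the 48 tested below 100, 11 were higher and 12 lower, with a median of 0.39. The median Control mean was 10.9 normalized counts in genes called higher and 88.5 in genes called lower. When the genes were split by the mean over both groups in place of the Control mean, 2 of 29 were higher and 9 lower at 100 or more, and 10 of 48 were higher and 13 lower below 100, with medians of -0.71 and 0.25. These are descriptions of the genes that passed the filters. A gene with few Control counts entered only with enough DZNep counts, so a split by the Control mean is not neutral. Over all levels 10.6% of all genes tested were called higher and 13.5% lower. Their shares at these levels were not computed, so the uneven split cannot be taken as particular to the genes described here.

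**Figure D2:**
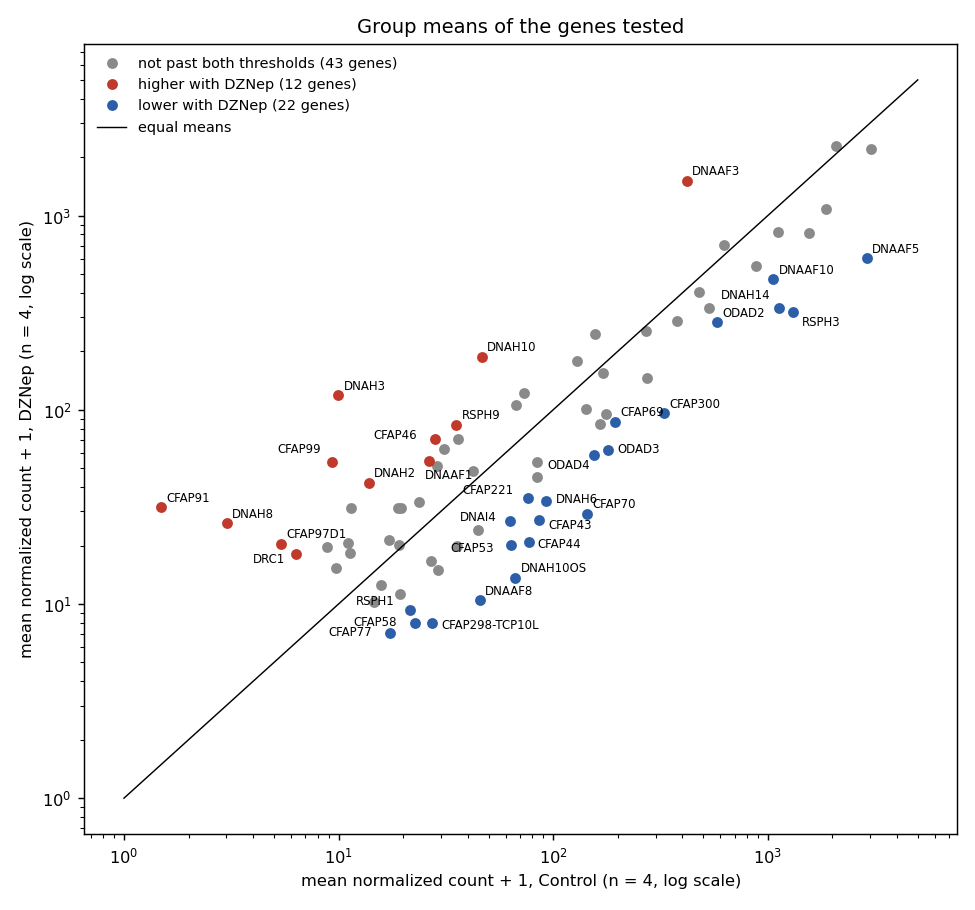
Mean normalized count plus 1 in the 4 Control libraries (horizontal, log scale) and in the 4 DZNep libraries (vertical, log scale) of the 77 genes tested, with the line of equal means. Red points above the line are the 12 genes called higher, of which only DNAAF3 had a Control mean over 100, and blue points below it are the 22 called lower.

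Promoter sequence was examined because many such genes are known targets of RFX factors, which bind the X-box. RefSeq promoter windows (GRCh38.p14, 250 bases before to 50 after the start) matched 60 of the 75 coding genes. The X-box core GTTGCC, read on either strand, was in 27 of the 60 (45%), in 12.2% of all 35116 windows and in 12.6% of the 12923 windows of genes tested. The longer X-box searched was GTTGCC, 2 bases of any kind, then GGNAAC, on either strand, and it holds the core within it. It was in 3 of the 60 windows (5%) and in 0.362% of all windows. The 3 windows were those of CFAP45, DNAH1 and CFAP20DC, none of them called, and they are shown because they hold the whole element, which is in capitals.
CFAP45, chr1:159900163-159900192, minus strand: ggctagtgGTTGCCAAGGTAACgcgtcaac
DNAH1, chr3:52316206-52316235, plus strand: aggctgatGTTGCCATGGCAACccggatag
CFAP20DC, chr3:59050148-59050177, minus strand: gtcccgcgGTTGCCTGGGCAACgctacgtc

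Of the genes called higher with a window, 5 of 9 held the core (55.6%), of those called lower 4 of 16 (25%) and of those not called 18 of 34 (52.9%). Over all genes tested the share was 9.83% of windows of genes called higher and 13% of windows of genes called lower. Of the 40 cores in these windows, 33 (82.5%) began at position -100 or later, against 53.7% of the cores in all windows. Of the heavy chain windows 5 of 9 held the core, of the RSPH windows 4 of 5 and of the CFAP windows 13 of 32. The called genes with the core are shown with it in capitals, where GGCAAC is the same element on the other strand, first those called higher (DNAH10, DRC1, DNAH2, CFAP46 and RSPH9) and then those called lower (DNAAF10, DNAH6, ODAD3 and CFAP53).
DNAH10, chr12:123762273-123762302, plus strand: gctagggccgccGTTGCCacggacgcccgc
DRC1, chr2:26401897-26401926, plus strand: accgctctccctGGCAACggtttgttccta
DNAH2, chr17:7717714-7717743, plus strand: tccctgcccgggGTTGCCatggggacgcgt
DNAH2, chr17:7717761-7717790, plus strand: agggctgcgaggGGCAACttcttagagtgg
CFAP46, chr10:132942570-132942599, minus strand: tttcggtctccaGGCAACcgtggccgggtc
RSPH9, chr6:43644881-43644910, plus strand: tactgtggccgtGGCAACtgaagacatccc
DNAAF10, chr2:68157484-68157513, minus strand: tctggtttccagGTTGCCgtttttgggggc
DNAH6, chr2:84516410-84516439, plus strand: gctggttgaggcGTTGCCtggcgacgtgtt
ODAD3, chr19:11435742-11435771, minus strand: atgcaccctccgGTTGCCccctgtaagaaa
CFAP53, chr18:50266485-50266514, minus strand: gaggcgcaccatGGCAACcagacttctgcg

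Counted from the RefSeq start, with no position 0, these cores began at -16 in DNAH10, -11 in DRC1, -18 and 30 in DNAH2, -17 in CFAP46 and -143 in RSPH9, and at 27 in DNAAF10, -76 in DNAH6, 24 in ODAD3 and -7 in CFAP53. The forkhead motif GTAAACA, on either strand, was in 1 of the 60 windows (1.67%) and in 3.42% of all windows. CpG dinucleotides numbered 23 per window at the median of the 60, 25 over the windows of genes tested, 21 over those of coding genes and 14 over all windows. Across the 59 tested genes with a window, the CpG number and the log2 fold change had a Spearman correlation of 0.0089, and the mean level and the log2 fold change of -0.41, both as descriptions over genes that share the same 8 libraries. A match of letters is not a bound site, and a window without one may hold the element elsewhere.

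**Figure D3:**
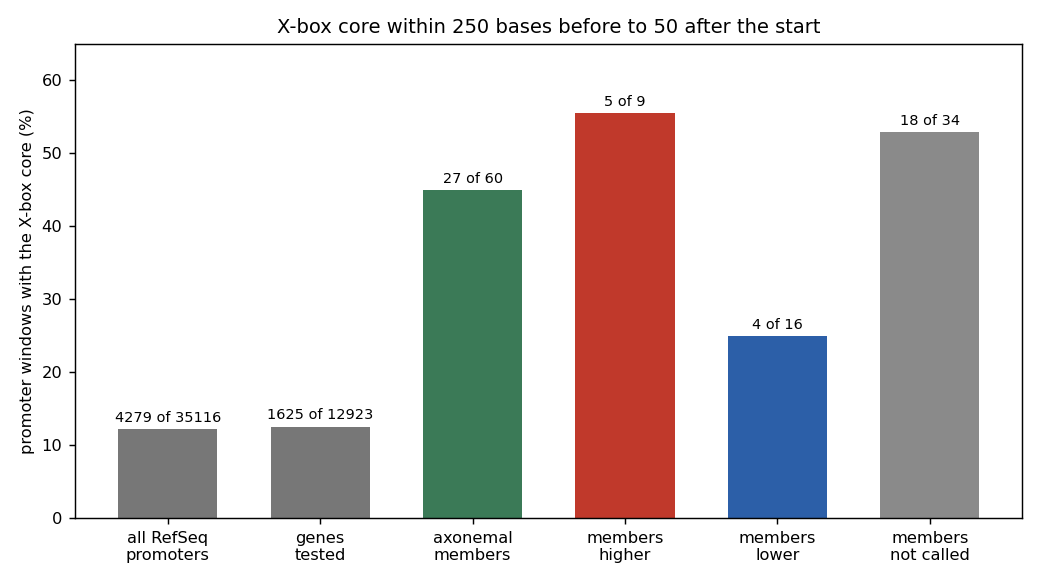
Share of promoter windows (300 bases) that hold the X-box core on either strand, with the number of windows above each bar; the axis starts at 0. The share is 12.2% of all RefSeq windows and 45% of those of the axonemal genes, with 5 of 9 among genes called higher, 4 of 16 among those called lower and 18 of 34 among those not called.

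The heavy chains moved in both directions. Of 11 coding heavy chains tested, 4 were called higher (DNAH3, DNAH8, DNAH10 and DNAH2) and 2 lower (DNAH14 and DNAH6). The shares over all genes tested were 10.6% and 13.5%. DNAH3, an inner arm heavy chain (chr16:20933111-21159441), had 6.17, 11.6, 11.6 and 6.45 normalized counts in Control replicates 1 to 4 and 102, 124, 100.2 and 146 in DZNep replicates 1 to 4. Every DZNep library was thus far above every Control library, with means of 8.97 ± 3.07 and 118 ± 21.8 (SD, n = 4). For DNAH3 the log2 fold change was 3.63 (SE 0.30, edgeR adjusted p = 2.29e-05). DNAH8, an outer arm heavy chain of sperm flagella (chr6:38715311-39030792), had 0, 4.46, 3.58 and 0 in Control libraries and 29.9, 26.6, 21.6 and 22.5 after DZNep. It had no count in 2 Control libraries and was present in all DZNep libraries. For DNAH8 the log2 fold change was 3.38 (SE 0.63, edgeR adjusted p = 0.00195).

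DNAH10 and DNAH2 are partner heavy chains of the same inner arm. DNAH10 (chr12:123762188-123935720) had 40.1, 41.1, 35.8 and 64.5 in Control libraries and 181, 202, 247 and 116 after DZNep, without overlap, with a log2 fold change of 2.01 (SE 0.29, edgeR adjusted p = 0.000447). DNAH2 (chr17:7717744-7833742) had 9.25, 16.1, 9.85 and 16.1 in Control libraries and 36.3, 41.9, 48.4 and 38.2 with DZNep, again without overlap, with a log2 fold change of 1.63 (SE 0.31, edgeR adjusted p = 0.00195). Exons of DNAH10 overlap the opposite-strand genes DNAH10OS and CCDC92, and both of these fell: DNAH10OS from 43.2, 68.7, 99.4 and 51.6 to 13.6, 9.66, 20.7 and 6.75 (log2 fold change -2.38, SE 0.41, edgeR adjusted p = 0.00114) and CCDC92 from a mean of 1755 to 192 (log2 fold change -3.22). The sources used here do not state whether counting used strand, so reads in the shared exons cannot be assigned with certainty.

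DNAH14 and DNAH6 fell. DNAH14, a heavy chain whose arm is less well described (chr1:224896262-225399292), had 1313, 909.7, 1103 and 1160.3 normalized counts in Control libraries and 316, 292, 318 and 412 after DZNep. It was the most abundant heavy chain per length in both groups, and its level fell in every pair of same-numbered libraries. For DNAH14 the log2 fold change was -1.77 (SE 0.17, edgeR adjusted p = 5.1e-05). DNAH6, an inner arm heavy chain (chr2:84516455-84819589), had 92.5, 90.2, 110.2 and 75.2 in Control libraries and 39.9, 33.8, 33.7 and 24.7 with DZNep, with a log2 fold change of -1.50 (SE 0.24, edgeR adjusted p = 0.000833). DNAH1, which carries an inner arm motor too, did not pass the fold change threshold, with 176 ± 39.3 in Control libraries and 94.6 ± 10.8 after DZNep (SD, n = 4) and a log2 fold change of -0.92 (SE 0.22, edgeR adjusted p = 0.00732). Without Control replicate 2 it passed, at -1.08 (edgeR adjusted p = 0.00169).

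The other 4 heavy chains passed neither threshold. DNAH11 and DNAH17, heavy chains of the outer arm in airway cilia and in sperm flagella, had log2 fold changes of -0.12 (SE 0.22, edgeR adjusted p = 0.698) and 0.71 (SE 0.38, edgeR adjusted p = 0.162). DNAH17 was called higher without Control replicate 4, at 1.19 (edgeR adjusted p = 0.0125), and from replicates 2 and 3 alone, at 1.52 (edgeR adjusted p = 0.00405), against 0.20 from replicates 1 and 4 (edgeR adjusted p = 0.666). DNAH7 and DNAH12, of the inner arms, had 0.20 (SE 0.36, edgeR adjusted p = 0.682) and 0.77 (SE 0.56, edgeR adjusted p = 0.303). DNAH7 overlapped between groups, and DZNep replicate 4, at 21.4, was below all Control libraries while the other DZNep libraries were at 45.3 to 64.4.

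Per length, as RPKM (reads per kilobase of exon, scaled to the library total), DNAH14 led both groups with 1.48 ± 0.217 in Control libraries and 0.455 ± 0.0461 after DZNep, and DNAH11 came next with 0.439 ± 0.145 and 0.425 ± 0.0921. The SDs of these pairs do not overlap in Control libraries and do after DZNep. DNAH1 was at rank 3 in the Control (0.328 ± 0.0714) and at rank 6 with DZNep (0.184 ± 0.0224). DNAH3 moved from rank 10 of 11 (0.0158 ± 0.00651) to rank 4 (0.210 ± 0.0281), and DNAH10 from rank 6 (0.0714 ± 0.0130) to rank 3 (0.315 ± 0.110). At ranks 3 to 5 of the DZNep libraries, DNAH10, DNAH3 and DNAH17 (0.202 ± 0.0433) lay within an SD of their neighbours. At the bottom of the Control order DNAH2, DNAH12 and DNAH3 were within their SDs of each other, and DNAH8 was last (0.00362 ± 0.00422).

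**Figure D4:**
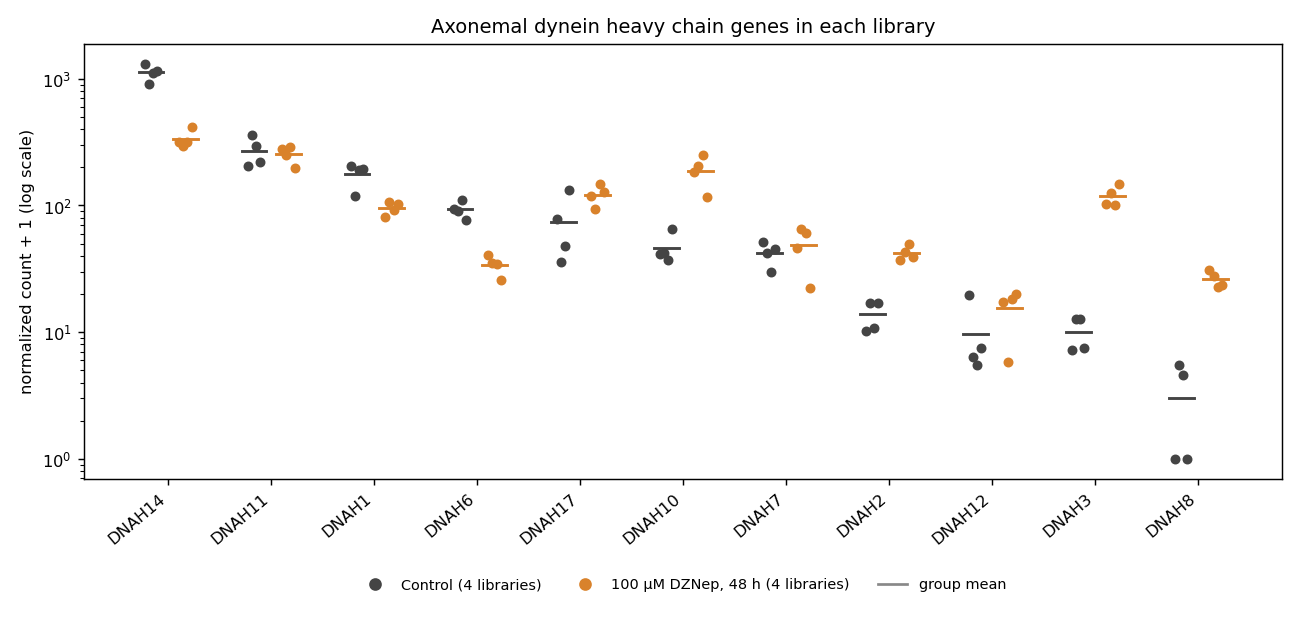
Normalized count plus 1 (log scale) of the 11 coding heavy chain genes in each of the 4 Control (dark) and 4 DZNep (orange) libraries, with bars at the group means, ordered from left by Control level. DNAH3, DNAH8, DNAH10 and DNAH2 have all orange points above the dark ones, DNAH14, DNAH6 and DNAH1 have them below, and DNAH11, DNAH17, DNAH7 and DNAH12 overlap.

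Of 6 intermediate and light chains tested, 1 was lower and none was called higher in edgeR or DESeq2, with 1 higher at an unadjusted p under 0.05 in edgeR. Across all genes tested 10.6% were called higher and 13.5% lower. DNAI4, an intermediate chain of an inner arm (chr1:66812885-66924856), had 83.2, 36.6, 53.7 and 74.1 in Control libraries and 24.5, 32.2, 32.0 and 14.6 after DZNep, with a log2 fold change of -1.27 (SE 0.35, edgeR adjusted p = 0.0158). The DZNep libraries were all below the Control libraries, but the gap was narrow, and from replicates 2 and 3 alone the log2 fold change was -0.53 (edgeR adjusted p = 0.301). DNAI3, a partner intermediate chain, had -0.53 (SE 0.21, edgeR adjusted p = 0.0735) and DNAI7 0.09 (SE 0.38, edgeR adjusted p = 0.871). DNAL1, a light chain bound to the outer arm motor, had 623 ± 35.8 and 701 ± 79.1 normalized counts (SD, n = 4) and a log2 fold change of 0.14 (SE 0.14). DNAL4, another light chain, passed the p threshold but not the fold change threshold at -0.71 (SE 0.16, edgeR adjusted p = 0.00636).

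DNALI1, an inner arm light chain (chr1:37556919-37566857), had 23.1, 1.79, 1.79 and 15.0 in Control libraries and 32.6, 22.6, 33.7 and 32.6 after DZNep. Control replicates 1 and 4 were high and replicates 2 and 3 low, and DZNep replicate 2 lay just below the highest Control library. The log2 fold change of 1.61 (SE 0.67) did not pass (edgeR adjusted p = 0.0781). With the replicate number as a block it was called higher at 1.86 (edgeR adjusted p = 0.00612).

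Assembly factors moved apart: DNAAF3 and DNAAF1 were higher and DNAAF5, DNAAF8, CFAP300 and DNAAF10 lower among 10 tested, with a median log2 fold change of -0.58. The shares called higher and lower over all genes tested were 10.6% and 13.5%. DNAAF5, which acts with chaperones in dynein assembly (chr7:726699-786475), had 2374, 3424, 3104 and 2641 normalized counts in Control libraries and 629, 712, 545 and 529 after DZNep. Every Control library was thus far above every DZNep library. For DNAAF5 the log2 fold change was -2.28 (SE 0.17, edgeR adjusted p = 1.32e-05). DNAAF5 shares exon bases with PRKAR1B on the opposite strand, which fell as well, from a mean of 607 to 135 (log2 fold change -2.20).

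DNAAF3 (chr19:55158661-55166722), whose loss in people stops assembly of both arms, moved the other way. It had 504, 338, 261 and 572 in Control libraries and 1549.9, 1212, 1017 and 2261 after DZNep, without overlap. For DNAAF3 the log2 fold change was 1.82 (SE 0.31, edgeR adjusted p = 0.00107). In both groups replicates 1 and 4 were above replicates 2 and 3, and the log2 fold change was 1.81 from replicates 1 and 4 alone and 1.86 from replicates 2 and 3 alone. DNAAF8 (chr16:4734344-4749396) had 55.5, 41.1, 41.2 and 39.8 in Control libraries and 6.35, 4.03, 9.50 and 18.0 with DZNep, with a log2 fold change of -2.27 (SE 0.43, edgeR adjusted p = 0.00196). CFAP300, an assembly factor named outside the DNAAF series (chr11:102047437-102084554), had 462, 199, 285 and 364 in Control libraries and 97.0, 68.5, 78.6 and 135 with DZNep, with -1.82 (SE 0.30, edgeR adjusted p = 0.000957).

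DNAAF10 and DNAAF1 were called less firmly. DNAAF10, a factor that works with chaperone complexes (chr2:68122936-68157549), had 1532, 491, 642 and 1562 in Control libraries and 461, 338, 366 and 706 after DZNep. The groups overlapped, because Control replicates 2 and 3 were below DZNep replicate 4, and the mitochondrial share was lower in replicates 2 and 3 of both groups; its part in the result was not tested. The log2 fold change was -1.20 (SE 0.39, edgeR adjusted p = 0.0326). It was -1.42 from replicates 1 and 4 and -0.72 from replicates 2 and 3, and leaving out Control replicate 1 or 4 or DZNep replicate 1, 2 or 3 took the adjusted p to between 0.0778 and 0.0959. DNAAF1 (chr16:84145287-84178767) had 32.4, 12.5, 19.7 and 36.5 in Control libraries and 49.0, 56.4, 45.8 and 64.1 with DZNep, with a log2 fold change of 1.08 (SE 0.35, edgeR adjusted p = 0.0316). Its adjusted p was between 0.051 and 0.0792 without Control replicate 2 or 3 or any DZNep library in turn. The factors DNAAF2, DNAAF4, DNAAF9 and CFAP298 had log2 fold changes of -0.46, -0.67, -0.43 and -0.50, none past the fold change threshold.

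Docking genes were mostly lower. Of 5 tested, ODAD3, ODAD4, ODAD2 and CFAP53, which seat the outer arm on the doublet, were called lower, with a median log2 fold change of -1.44. The share called lower was 13.5% over all genes tested. With 5 genes this is a description, and ODAD2 was called lower in only 10 of 19 alternative fits. None of the 5 was higher in edgeR or DESeq2, or at an unadjusted p under 0.05 in edgeR. ODAD3 (chr19:11420604-11435782) had 236, 109.8, 121 and 251 in Control libraries and 55.3, 44.3, 64.8 and 81.0 after DZNep. For ODAD3 the log2 fold change was -1.57 (SE 0.33, edgeR adjusted p = 0.00365). ODAD4 (chr17:41930617-41966503) had 211, 88.4, 119 and 197 in Control libraries and 58.0, 38.7, 45.8 and 88.9 with DZNep, with the highest DZNep library just above the lowest Control library. Its log2 fold change was -1.44 (SE 0.35, edgeR adjusted p = 0.00838). In both genes replicates 1 and 4 of the Control were above replicates 2 and 3, and the log2 fold changes within replicates 1 and 4 and within replicates 2 and 3 were -1.86 and -1.11 for ODAD3, and -1.49 and -1.33 for ODAD4.

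ODAD2 (chr10:27775186-27999079) had the opposite order among the Control libraries, 496, 767, 768 and 276, against 288, 278, 371 and 186 after DZNep. Its log2 fold change of -1.06 (SE 0.33) was only just past the threshold (edgeR adjusted p = 0.0242), and it was between -0.89 and -1.07 with an adjusted p between 0.0522 and 0.0678 without Control replicate 2 or 3 or DZNep replicate 1, 2 or 4. CFAP53, at docking sites and inside the doublet (chr18:50227193-50266495), had 86.3, 25.9, 49.3 and 90.2 in Control libraries and 13.6, 23.4, 13.8 and 25.9 with DZNep, with -1.73 (SE 0.43, edgeR adjusted p = 0.00924). Control replicate 2 lay level with the highest DZNep library, and from replicates 2 and 3 alone the log2 fold change was -1.04 (edgeR adjusted p = 0.0952). ODAD1, a coiled-coil protein of the same complex, had 22.7 ± 7.21 and 32.6 ± 5.95 (SD, n = 4) with a log2 fold change of 0.50 (SE 0.32, edgeR adjusted p = 0.236).

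**Figure D5:**
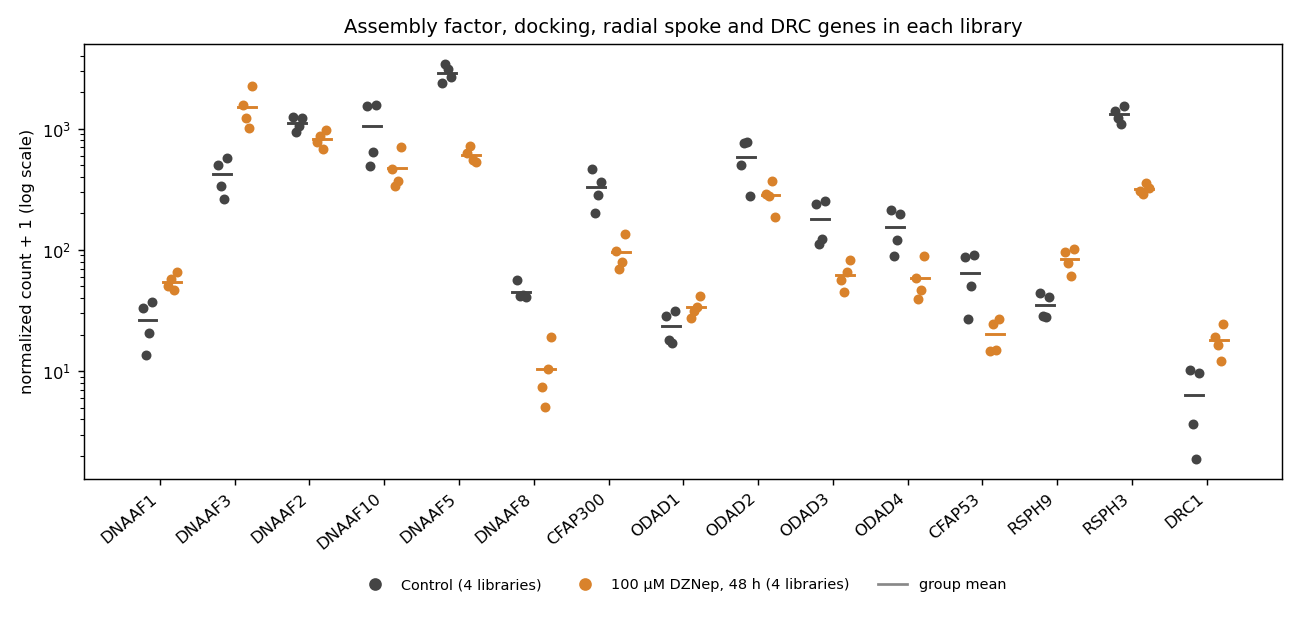
Normalized count plus 1 (log scale) of assembly factor, docking, radial spoke and DRC genes in each of the 4 Control (dark) and 4 DZNep (orange) libraries, with bars at the group means. DNAAF1, DNAAF3, RSPH9 and DRC1 sit higher with DZNep without overlap, and DNAAF5, DNAAF8, CFAP300, ODAD3 and RSPH3 sit lower without overlap, while DNAAF10, ODAD2 and ODAD4 overlap and the groups of CFAP53 touch.

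Radial spoke genes moved in both directions, with 2 of 9 called higher and 2 lower when the spoke base is included. Of all genes tested 10.6% were called higher and 13.5% lower. RSPH3, of the spoke stalk (chr6:158972871-159000202), had 1395, 1226, 1086 and 1527 in Control libraries and 302, 289.9, 358 and 321 after DZNep, and its log2 fold change was -2.07 (SE 0.16, edgeR adjusted p = 1.46e-05). RSPH9, of the spoke head (chr6:43645036-43672600), had 43.2, 27.7, 26.9 and 39.8 in Control libraries and 94.3, 76.5, 59.6 and 101 with DZNep, again without overlap, and its log2 fold change was 1.25 (SE 0.27, edgeR adjusted p = 0.0048). The opposite-strand neighbour MRPS18A, which shares exon bases with RSPH9, was far more abundant. It went from a mean of 1182 to 2236 normalized counts (log2 fold change 0.89, edgeR adjusted p = 0.00265). Its part in the RSPH9 counts was not tested. RSPH4A, another head protein, had 0.66 (SE 0.39, edgeR adjusted p = 0.2), and RSPH14 and RSPH10B had -0.87 and -0.60. RSPH10B has a near-identical copy, RSPH10B2, and the study counted only unique reads, so the count of RSPH10B is uncertain. RSPH1, also of the head (chr21:42472486-42496246), had 27.7, 17.0, 15.2 and 22.6 in Control libraries and 8.16, 2.42, 6.91 and 15.7 with DZNep, with -1.35 (SE 0.49, edgeR adjusted p = 0.0486). It lay at the edge of the threshold, and its adjusted p was between 0.0508 and 0.116 without any Control library in turn or without DZNep replicate 1, 2 or 3.

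CFAP91, at the base of the spokes (chr3:119703022-119767102), had 0, 0, 0.896 and 1.07 normalized counts in Control libraries and 33.6, 34.6, 29.4 and 24.7 after DZNep. In reads these were 2 counts over the 4 Control libraries and 136 over the 4 DZNep libraries, a ratio of 59.1 after scaling, with a 95% counting interval of 16.0 to 493. For CFAP91 the log2 fold change was 5.55 (SE 0.56, edgeR adjusted p = 6.2e-05). The interval covers counting error only. CFAP251 and CFAP61, also near the spoke base, had log2 fold changes of 0.96 (SE 0.29, edgeR adjusted p = 0.0219) and 1.20 (SE 0.59, edgeR adjusted p = 0.13). CFAP251 was called higher in 8 of 19 alternative fits. CFAP61 was called higher with the replicate block, at 1.31 (edgeR adjusted p = 0.0326).

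The 3 DRC genes, of the link between neighbouring doublets, had every DZNep library above every Control library, as had 19.5% of all genes tested. DRC1 and DRC7 had 18 and 36 counts over the Control libraries and 73 and 83 over the DZNep libraries. Both thus entered the normalized table mainly through their DZNep counts. Among 10 tested genes of this complex and its rulers with other symbols, given below, 0 were called higher and 3 lower. DRC1, which anchors the complex (chr2:26401920-26456711), had 9.25, 2.68, 0.896 and 8.59 in Control libraries and 18.1, 15.3, 11.2 and 23.6 with DZNep, with a log2 fold change of 1.71 (SE 0.57, edgeR adjusted p = 0.0355). Its adjusted p was between 0.0592 and 0.0765 without Control replicate 2 or 3 or DZNep replicate 1, 2 or 4. DRC3 and DRC7 passed neither the p nor the fold change threshold, at 0.44 (SE 0.19, edgeR adjusted p = 0.0814) and 0.95 (SE 0.44, edgeR adjusted p = 0.11).

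In the central apparatus, which the spokes touch, 2 of 8 genes were higher and 3 lower, against 10.6% and 13.5% of all genes tested. CFAP70 (chr10:73253762-73358864) fell from 156, 146, 176 and 94.5 in the Control to 28.1, 30.6, 29.4 and 24.7 after DZNep. For CFAP70 the log2 fold change was -2.36 (SE 0.25, edgeR adjusted p = 7.73e-05). CFAP69 and CFAP221 fell less, by log2 fold changes of -1.19 (SE 0.19, edgeR adjusted p = 0.000698) and -1.16 (SE 0.24, edgeR adjusted p = 0.00378), and CFAP221 was at -0.99 from replicates 1 and 4 alone (edgeR adjusted p = 0.06). CFAP46 (chr10:132808392-132942823) rose from 21.6, 32.1, 25.1 and 30.1 to 59.9, 72.5, 65.6 and 81.0, and its log2 fold change was 1.32 (SE 0.24, edgeR adjusted p = 0.00181). CFAP99 (chr4:2418974-2462942) rose from 9.25, 9.82, 4.48 and 9.67 to 52.6, 43.5, 53.5 and 63.0, and its log2 fold change was 2.65 (SE 0.33, edgeR adjusted p = 0.000195). CFAP54, CFAP65 and CFAP74 had log2 fold changes of -1.04, 0.75 and 0.83 and were not called.

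CFAP43 and CFAP44, which tether an inner arm motor to the doublet, fell together. CFAP43 (chr10:104129888-104232364) had 94.0, 63.4, 99.4 and 82.7 in Control libraries and 29.9, 21.7, 25.9 and 27.0 after DZNep, and its log2 fold change was -1.72 (SE 0.25, edgeR adjusted p = 0.000428). CFAP44 (chr3:113286930-113441610) had 77.1, 49.1, 60.9 and 116 in Control libraries and 23.6, 13.7, 13.8 and 28.1 after DZNep, and its log2 fold change was -1.97 (SE 0.37, edgeR adjusted p = 0.00197). CFAP57 and CFAP73, of inner arm regulation too, had log2 fold changes of 0.29 and -0.88 (edgeR adjusted p = 0.543 and 0.193).

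Of 8 proteins inside the doublet tested, 1 was called lower, CFAP77 (chr9:132410043-132573319), with 6.17, 16.1, 20.6 and 22.6 in Control libraries and 3.63, 6.44, 4.32 and 10.1 with DZNep and a log2 fold change of -1.48 (SE 0.48, edgeR adjusted p = 0.0301). Its adjusted p was between 0.0616 and 0.0937 without Control replicate 3 or 4 or DZNep replicate 1, 2 or 3. CFAP20, the most abundant of these families per length in the Control (RPKM 23.4 ± 2.34), was not called and went from 2074 ± 59.5 to 2290.1 ± 402 normalized counts (SD, n = 4) with a log2 fold change of 0.12 (SE 0.15). CFAP45, CFAP52, CFAP68, CFAP90, CFAP144 and CFAP210 lay between -0.93 and 0.73 and were not called. The share called lower over all genes tested was 13.5%. Of the CFAP genes without an assigned place, CFAP58, of the sperm flagellum, fell from 17.0, 17.0, 22.4 and 30.1 to 1.81, 8.05, 10.4 and 7.87 (log2 fold change -1.63, SE 0.46, edgeR adjusted p = 0.0167), with -1.12 from replicates 2 and 3 alone (edgeR adjusted p = 0.0981). CFAP97D1, also of the sperm flagellum, rose from 7.71, 8.04, 1.79 and 0 to 22.7, 13.7, 12.1 and 29.2 (log2 fold change 2.12, SE 0.68, edgeR adjusted p = 0.0298), and its adjusted p was 0.0655 to 0.0769 without Control replicate 3 or DZNep replicate 1 or 4. The remaining CFAP genes, CFAP20DC, CFAP36, CFAP92, CFAP97, CFAP119, CFAP157, CFAP410 and CFAP418, had absolute log2 fold changes under 1 and were not called. CFAP92 lay at the threshold (log2 fold change 1.00, SE 0.26, edgeR adjusted p = 0.0125) and was called higher in 12 of 19 alternative fits. CFAP418 was called lower with the replicate block, at -1.01 (edgeR adjusted p = 0.000278). The readthrough CFAP298-TCP10L (log2 fold change -1.96, SE 0.48, edgeR adjusted p = 0.00869) shares exons with CFAP298 (-0.50) and with TCP10L (-2.75), so its reads cannot be told from theirs with certainty, and CFAP58-DT had -0.96 (SE 0.33, edgeR adjusted p = 0.0415) and was called lower with the replicate block, at -1.02 (edgeR adjusted p = 0.0106).

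By family, CFAP genes had 4 higher and 10 lower of 38 tested (median log2 fold change -0.72), DNAAF genes 2 and 3 of 8 (-0.56), DNAH genes 4 and 3 of 12 with DNAH10OS (0.46), and ODAD genes 0 and 3 of 4 (-1.25). RSPH genes had 1 higher and 2 lower of 6 (-0.74), DRC genes 1 and 0 of 3 (0.95), DNAI genes 0 and 1 of 3 (-0.53), while DNAL (2 tested, -0.28) and DNALI (1 tested, 1.61) had none. Of all genes tested 10.6% were called higher and 13.5% lower, and their median log2 fold change was -0.03. Where a family had no call in a direction, DESeq2 called none either, and at an unadjusted p under 0.05 in edgeR 1 DNAL gene was lower and the DNALI gene was higher. With so few genes in most families these are descriptions, and no difference between families was tested. Exons of 44 of the 78 genes overlap another counted gene, so their counts carry the uncertainty given above for DNAH10.

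Neighbours that start back to back with these genes, within 1000 bases, were examined next. Of 12 such pairs of coding genes, 7 had the same sign, 5 of the genes were called and 2 of the partners were called, and no pair was called in the same direction. Over all genes tested 10.6% were called higher and 13.5% lower. Whether neighbours moved together or apart was not tested, and the single pairs below are descriptions. The non-coding CFAP58-DT starts 208 bases from CFAP58, which was called lower while CFAP58-DT passed only the p threshold with the same sign, and this pair is not among the 12. CFAP99 rose (2.65) while ZFYVE28, starting 323 bases away, fell from a mean of 157 to 29.8 (log2 fold change -2.43). DNAI4 fell (-1.27) while MIER1, 39 bases away, was at 0.79 without passing the fold change threshold. DNAI7 was at 0.09 while ETFRF1, 54 bases away, fell (-1.35). ODAD4, DNAAF10 and DNAAF1 had the partners ACLY (-0.41), PNO1 (-0.01) and HSDL1 (-0.26), none of them called.

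Other genes of the axoneme, of cytoplasmic dynein and of transcription control of motile cilia were taken from lists by structure or role. Together they are called the other axoneme genes below. Of 98 tested, 10 were called higher and 22 lower, against 10.6% and 13.5% of all genes tested, with a median log2 fold change of -0.41. The 98 include 17 transcription regulators (3 higher, 3 lower) and 9 genes of cytoplasmic dynein 1 and 2 (0 higher, 3 lower). DAW1, which takes outer arms into the cilium, had no count in any Control library and 20.9, 12.9, 25.9 and 20.2 normalized counts after DZNep, at least 25.2-fold higher when the Control is set at a floor of 3 counts over the group. DYDC2, of the radial spoke, had 1.54, 0.893, 0.896 and 1.07 in Control libraries and 20.9, 16.1, 31.1 and 20.2 with DZNep (log2 fold change 4.21, SE 0.45, edgeR adjusted p = 8.71e-05). TEKT2, a tektin inside the doublet, rose from 24.1 to 111 normalized counts at the means (2.18), and DYNLT2, MORN3, EFHC2 and SPEF1 rose by log2 fold changes of 1.17, 1.43, 1.59 and 1.68. EFHC2 had adjusted p between 0.0523 and 0.0903 without Control replicate 1, 2 or 4 or DZNep replicate 1, 3 or 4, and SPEF1 between 0.0556 and 0.0788 without Control replicate 2 or 3 or DZNep replicate 1, 2 or 4.

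Cytoplasmic dynein 2, the motor of transport back from the tip of any cilium, had DYNC2H1, DYNC2LI1, DYNC2I1 and DYNLT2B called lower. DYNC2H1, its heavy chain, fell from 4395, 7023, 4717 and 4992 to 834, 1039.8, 975 and 808 (log2 fold change -2.56, SE 0.19, edgeR adjusted p = 1.21e-05). DYNC2LI1, DYNC2I1 and the light chain DYNLT2B had log2 fold changes of -1.85, -1.27 and -1.43, and DYNC2I1 was at -0.95 without Control replicate 4. In the central apparatus KIF6, AK7, AK8 and SPEF2 fell (-2.31, -2.24, -1.60 and -1.41), and at the spokes AK9 (-2.67) and IQUB (-1.22). IQCG, a subunit of the regulatory complex, fell from 318, 319, 376 and 408 to 73.5, 67.7, 67.4 and 73.1 (log2 fold change -2.36, SE 0.17, edgeR adjusted p = 1.17e-05), and TCTE1, of the same complex, and CCDC113 fell too (-1.82 and -1.59).

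Of the assembly genes outside DNAAF, ZMYND10 (-1.76), PIH1D2 (-1.24) and RUVBL1 (-1.04) fell. ZMYND10 had an adjusted p of 0.0599 without Control replicate 1 and 0.0616 without DZNep replicate 1, and RUVBL1 was at -0.97 without Control replicate 2 or DZNep replicate 3. EFCAB6, a doublet protein, fell (-1.89).

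Regulators of motile cilium genes did not share a direction. FOXJ1, the factor that drives the motile program, was below the filter of the test in both groups, with means of 3.19 and 4.18 normalized counts. RFX factors had log2 fold changes of 0.60 (SE 0.14) for RFX1, -0.59 (SE 0.16) for RFX2, -0.01 (SE 0.25) for RFX3, 0.75 (SE 0.16) for RFX5 and 0.71 (SE 0.33) for RFX7, none past the fold change threshold. The sign for RFX3 turned with other size factors. RFX6, a factor of the pancreas and gut, rose from 29.3, 38.4, 34.0 and 45.1 to 208, 203, 250.5 and 184 (log2 fold change 2.49, SE 0.21, edgeR adjusted p = 2.66e-05). GMNC, which with MCIDAS starts the multiciliated program, rose from 4.62, 27.7, 22.4 and 9.67 to 60.8, 68.5, 67.4 and 27.0 (log2 fold change 1.72, SE 0.49, edgeR adjusted p = 0.0186), with an adjusted p of 0.0517 without DZNep replicate 3. MCIDAS, CCNO, FOXN4, MYB, E2F4 and GMNN had -0.45, -0.62, -0.42, -0.39, -0.21 and 0.37 and were not called. CDC20B, a gene of the multiciliated program, rose from 1.54, 9.82, 8.06 and 0 to 39.0, 29.8, 48.4 and 57.4 (log2 fold change 3.00, SE 0.64, edgeR adjusted p = 0.00401). E2F5 and its partner TFDP1, cell cycle factors that also act in multiciliated cells, and TP73 fell (-1.57, -1.02 and -1.16). TFDP1 was between -0.93 and -0.99 without Control replicate 2 or 3 or DZNep replicate 2 or 3. It lay at the fold change threshold and was not called with other size factors, DESeq2 or limma (-0.965 to -0.997).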

How the data were processed

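RNA was extracted from HEK293T cells treated with 100 µM DZNep or vehicle for 48 h, 4 libraries in each group, by a sequencing provider per the labels. The authors used Trimmomatic 0.36 for trimming, STAR 2.5.2b for alignment to GRCh38 and featureCounts of Subread 1.5.2 for counting on exons, and deposited the raw counts of 57500 genes. They also deposited a table of normalized counts for 19118 genes, a signal; each value was checked to equal the count over the scaling factor of that library (DESeq2 is named per the labels) for genes with more than 80 counts in all. The annotation release and the strandedness are not given in the sources used here, so antisense and overlapping genes are uncertain.

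Symbols, coordinates and exon lengths came from GENCODE release 44, which matched 56410 identifiers and may differ from the annotation used for counting. Levels per length were computed here from the counts, as RPKM with the merged exon length and the library total. The main test was edgeR 4.0.16 (quasi-likelihood, TMM normalization, filterByExpr, 19171 genes) in R 4.3.3, with Benjamini-Hochberg adjustment over all genes tested and the thresholds of the study's methods (adjusted p under 0.05, absolute log2 fold change over 1). The script was tested on simulated data. Library totals of 25043058 to 44902779 counts limit the precision of genes with few counts, and counting intervals and floors cover counting error only.

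Samples were grouped by the treatment in their labels. Both groups carry the replicate numbers 1 to 4. Deviations from the group means correlated by 0.136, 0.492, 0.429 and 0.673 between libraries of the same number. The main test had treatment alone and did not use this pairing. It gave the calls and adjusted p values wherever no other fit is named. An alternative fit had replicate as a block. Other alternatives were DESeq2 1.42.0, limma 3.58.1 on log2(normalized count + 1) or + 0.1, other size factors, other filters on low counts, glmTreat, and leaving out each library. The fit on the genes of the normalized table and those on replicates 1 and 4 and on replicates 2 and 3 were chosen after seeing the data.

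The genes and lists were chosen with earlier results of these data known, and the lists of other axoneme genes were written from general knowledge. Named were every called gene, in each family the coding gene with the highest Control level per length and those with the highest and lowest log2 fold change, every heavy chain, every called gene of the other lists and every tested regulator; some genes of the other lists and of the marker lists are not reported here by name. The genes that were neither called nor at an extreme were added after their values were seen, so that every gene in the table is accounted for. Promoter windows came from RefSeq (GRCh38.p14), and 15 coding genes matched no window. Proteomic data of the study were not analysed here.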

Additional observations from a re-analysis of the deposited data

Results flagged for a closer look

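In 175 groups of 4 libraries, 9 held a library whose gap to the nearest of the others exceeded Dixon's 95% critical value for 4 samples. Chance alone flags about 1 group in 20. Among the genes described first, CFAP221 had 55.5 normalized counts in Control replicate 1 against 80.4 to 84.2 in the other Control libraries. CFAP99 had 4.48 in Control replicate 3 against 9.25 to 9.82. DNAAF8 had 55.5 in Control replicate 1 against 39.8 to 41.2, and DNAH12 had 18.5 in the same library against 4.48 to 6.45. DNALI1 had 22.6 in DZNep replicate 2 against 32.6 to 33.7 in the other DZNep libraries. The calls of CFAP221, CFAP99 and DNAAF8 held when that library was left out, and DNAH12 and DNALI1 were not called.

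Among the other axoneme genes and regulators, IQUB had 26.9 in Control replicate 3 against 44.7 to 48.3, and GMNN had 2727 in Control replicate 4 against 3279 to 3348. KIF6 had 52.9 in DZNep replicate 4 against 22.7 to 25.1, and RFX1 had 1564 in DZNep replicate 4 against 1389 to 1414. Control replicate 1, which held CFAP221, DNAAF8 and DNAH12, was the shallowest library.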

How the results depend on the processing

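The 12 genes called higher became 10 to 17 and the 22 called lower became 18 to 25 when each library was left out in turn, and 8 to 10 of the other axoneme genes were then higher and 20 to 25 lower. A further test (glmTreat) had as its null an absolute log2 fold change of at most 1. It called 6 of these genes higher and 9 lower, and 5 and 10 of the other axoneme genes. Over the 19 other alternatives 9 of the 12 higher and 14 of the 22 lower genes were called in every fit. RSPH1 was called in 5 of the 19, CFAP77 and ODAD2 in 10, DNAAF10 in 11, DNAAF1 in 12, DRC1 in 13 and CFAP97D1 in 14, while CFAP221, CFAP53, CFAP58 and DNAI4 lost the call with only replicates 1 and 4 or only replicates 2 and 3. CFAP276 was called lower without the filter, with a mean of at least 10 counts and by DESeq2, limma and the fit on the genes of the normalized table. Of the genes tested and not called, 19 were called in 1 or more of the 19 alternatives: CFAP92 in 12, CFAP251 in 8, DNALI1 in 6, CFAP418 and CFAP58-DT in 5 and the others in 1 to 3. Leaving out Control replicate 4 gave calls to DNAH17 (1.19), CFAP45 (1.18), CFAP65 (1.47), CFAP54 (-1.25), CFAP97 (-1.20), CFAP20DC (-1.11), CFAP418 (-1.09), CFAP92 (1.09) and CFAP251 (1.09), and leaving out Control replicate 2 to DNAH1 (-1.08), RSPH14 (-1.09), CFAP144 (-1.09), CFAP210 (-1.03) and CFAP58-DT (-1.04). Leaving out Control replicate 3 gave calls to CFAP61 (2.00) and CFAP210 (-1.14), leaving out Control replicate 1 to DNALI1 (2.30) and CFAP251 (1.07), and leaving out 1 DZNep library to CFAP92, CFAP251, CFAP418 and CFAP58-DT. With the replicate block 14 were higher (with CFAP61 and DNALI1) and 24 lower (with CFAP418 and CFAP58-DT), and of the other axoneme genes 10 were higher and 23 lower (with MNS1); the block changed no other call. The cause was not tested.

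Signs turned in genes that were not called. CFAP20 was at -0.0107 without DZNep replicate 4 (-0.0107 to 0.174 without each library) and -0.0369 from replicates 2 and 3. DNAH11 was at 0.0517 without Control replicate 2 (-0.230 to 0.0517) and 0.152 from replicates 1 and 4, and DNAH7 at -0.496 from replicates 1 and 4. DNAI7 was at -0.0755 and -0.0817 without Control replicates 3 and 4 (-0.0817 to 0.480) and -0.119 from replicates 1 and 4. RFX3 was at 0.0143 with median-ratio size factors, 0.0642 when only library sizes were used, 0.00173 without the filter, 0.0163 with DESeq2, 0.0235 with limma at either pseudocount and 0.119 from replicates 1 and 4, and it went from -0.168 to 0.143 without each library, turning for Control replicates 2 and 3 and DZNep replicates 1 and 4. Depth limited the genes with few counts: 11 of the 78 had at most 40 counts in the Control libraries and 7 in the DZNep libraries.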
